A study of Homo sapiens with 6 samples.

Results

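The mRNAs of 10 growth factors that bind the ERBB receptors were examined in MDA-MB-453 cells: the neuregulins *NRG1*, *NRG2*, *NRG3* and *NRG4*, and *EGF*, *TGFA*, *AREG*, *BTC*, *HBEGF* and *EREG*. They were taken by gene symbol, and all 10 were found among the 22807 genes of the table. MDA-MB-453 is an established HER2+ breast cancer cell line, grown in RPMI with fetal bovine serum and the labels name no drug treatment. There were 6 RNA-seq libraries, of which 3 came from cells given *DUSP6* siRNA (genotype label DUSP6 KD) and 3 from cells given scrambled siRNA (genotype label WT). Per the study, each group was made with 3 different siRNAs, and the labels do not say which library received which, nor whether the libraries came from separate cultures, so the tests measure the spread between these libraries only. The comparison asks which ligand mRNAs differ when *DUSP6*, a phosphatase that removes the activating phosphates from ERK, is depleted.

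The ERBB family has 4 receptors, EGFR, HER2 (gene *ERBB2*), HER3 (*ERBB3*) and HER4 (*ERBB4*). A ligand binds the extracellular part of a receptor and lets it pair with a second receptor, which switches on the ERK and PI3K/AKT pathways. HER2 has no known ligand and HER3 has little kinase activity of its own, and neuregulins that bind HER3 can activate the HER2-HER3 pair from outside. NRG1 and NRG2 bind HER3 and HER4, NRG3 and NRG4 bind HER4, EGF, TGFA, AREG and EPGN bind EGFR, and BTC, HBEGF and EREG bind both EGFR and HER4. Most of these ligands are made as membrane proteins and cut loose by proteases of the ADAM and BACE families.

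The libraries held 45546981 to 85729785 recovered reads, and 1 read was worth a normalized value of 0.0121 to 0.0202, with library size and composition already adjusted for. limma tested log2(value + 1) for the 12862 genes whose mean value reached 1 and called 44.5% of them at a Benjamini-Hochberg adjusted p under 0.05. Values of 3 libraries are given in the order of their replicate numbers throughout. *DUSP6* itself was at 209, 110 and 114 with scrambled siRNA and at 39.4, 24.5 and 35.2 with *DUSP6* siRNA (log2 fold change -2.05, standard error 0.25, limma adjusted p = 3.09e-04). Exons of an unnamed gene on the opposite strand cover 28.6% of those of *DUSP6*, so its value is uncertain, by an amount that was not measured. All 8 luminal epithelial markers of the line were present, with a summed value of 4637 to 5476 with scrambled siRNA and 3330 to 3617 with *DUSP6* siRNA. Of the 5 fibroblast markers with a row, *COL1A1* alone reached a mean value of 1 (log2 fold change 0.90, limma adjusted p = 4.21e-04), and of the 3 immune markers *CD68* alone did. All 10 interferon-induced genes examined rose with *DUSP6* siRNA, against 19.7% of all genes tested that rose. Their summed value was 18.8 to 56.4 with scrambled siRNA and 3197 to 3772 with *DUSP6* siRNA. Of them, *OAS2*, *MX1* and *IFI44L* passed the filter only through the *DUSP6* siRNA group. Their means with scrambled siRNA were 0.919, 0.571 and 0.317. Of the basal epithelial markers, *KRT17* rose (log2 fold change 3.06, limma adjusted p = 3.94e-06), having passed the filter only through the *DUSP6* siRNA group, where its mean was 14.7 against 0.875, and *TP63* fell (log2 fold change -1.95, limma adjusted p = 3.39e-04). These shifts lay in the same libraries as every ligand difference below, and their part in it was not tested.

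Of the 10 ligands, *NRG3*, *AREG*, *HBEGF* and *EGF* passed the filter on low values and were tested by limma, and the other 6 fell under it. *EGF* fell, no ligand rose, and 3 of the 4 did not pass the test. In bulk RNA, fewer cells that make a ligand and less RNA per cell cannot be told apart. Across all genes tested, 19.7% rose and 24.7% fell, and the median log2 fold change was -0.01, against -0.13 for the 4 ligands. By edgeR, described next, the median was 0.40 over the 9 ligands it tested, against 0.018 over all its genes. That 0.40 is the value of *EREG*, which had 16 reads in all and did not pass (edgeR adjusted p = 0.716). The medians of the 2 tests cover different sets of ligands, so their signs do not show a shift of the ligands as a group. At an unadjusted p under 0.05, *HBEGF* was the 1 ligand higher. The ligands were also tested by edgeR (quasi-likelihood test on recovered reads), which took the 9 ligands with at least 10 reads in all. It called *NRG2*, *TGFA* and *BTC* higher and *EGF* lower, while 17.4% of the 18500 genes it tested were higher and 19.0% lower. Among the 5638 genes of mean value under 1 that edgeR tested, 14.2% were called higher and 6.46% lower. limma without its filter called the same 3 ligands higher, where 13.1% of 22807 genes were called higher. With 3 libraries against 3, a two-sided exact permutation test of a single gene cannot give a p below 0.1.

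**Figure D1:**
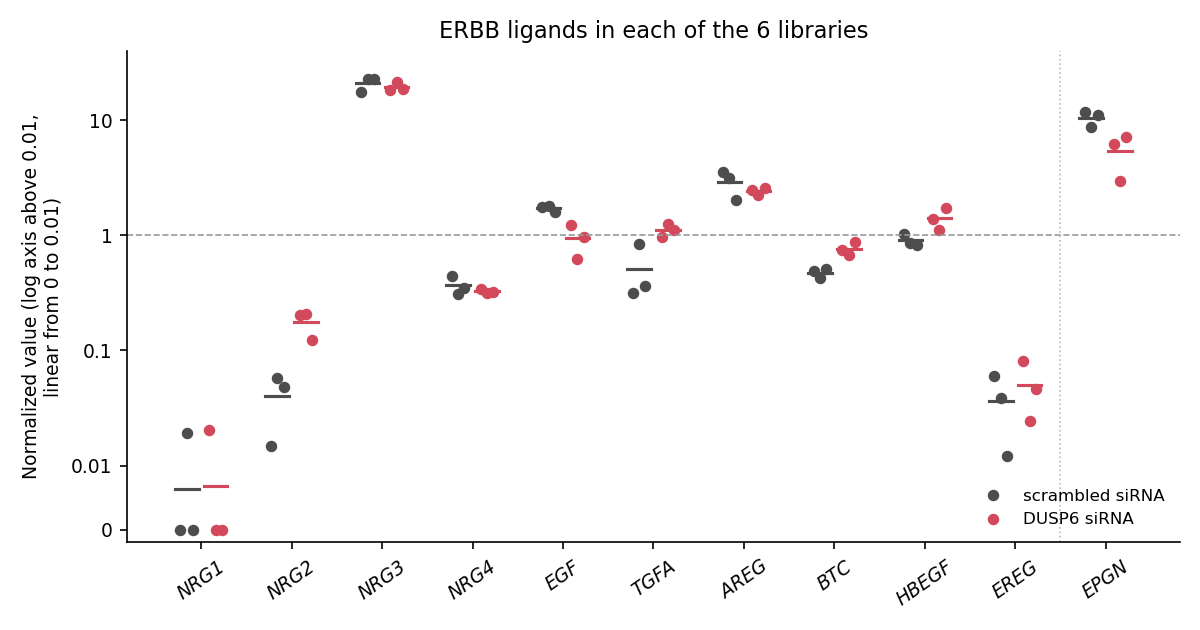
Normalized value of the 10 ligands and of *EPGN* (right of the dotted line) in each library, with short bars for group means; the axis is logarithmic above 0.01 and linear from 0 to 0.01, and the dashed line marks a value of 1. *NRG3* lay between 17.5 and 22.8 in all 6 libraries, while *NRG1* was at 0 in 4 of them.

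Of the neuregulins that bind HER3, *NRG1* was near zero and *NRG2* was low. *NRG1*, the ligand for which HER3 signalling is best known, had 0, 1 and 0 reads with scrambled siRNA and 1, 0 and 0 reads with *DUSP6* siRNA. Both groups stayed under 3 reads per library, the limit set for a detectable level, which corresponds to a value of 0.0362 to 0.0607. edgeR did not test *NRG1*, limma without its filter gave an adjusted p of 0.987, and a difference was not detectable at this depth.

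*NRG2* (chr5:139846781-140043299 on GRCh38, as are all positions given) had 1, 3 and 4 reads with scrambled siRNA and 10, 17 and 8 with *DUSP6* siRNA. Its normalized value went from 0.0402 ± 0.0224 (SD, n = 3) to 0.178 ± 0.0471 (SD, n = 3), and every *DUSP6* siRNA library lay above every scrambled siRNA library, which held in this direction for 23.6% of the genes of mean value under 1. *NRG2* was called higher on these reads (edgeR log2 fold change 2.12, adjusted p = 0.0119), at a level that remained below 0.21 in each library. It had 8 reads in all with scrambled siRNA and 35 with *DUSP6* siRNA. It thus reached the 10 reads that edgeR required only through the *DUSP6* siRNA group, and the fold change is taken against 1 to 4 reads per library. Without *DUSP6* siRNA replicate 2 the edgeR adjusted p was 0.053. Exons of an unnamed gene on the opposite strand cover 5.09% of those of *NRG2*, so its few reads are uncertain.

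*NRG3*, a ligand of HER4 best known from the nervous system, was the highest of the 10. It lies at chr10:81875194-82987179. It was at a normalized value of 17.5, 22.6 and 22.8 with scrambled siRNA and 18.4, 21.5 and 18.8 with *DUSP6* siRNA. The groups overlapped, with means of 21.0 ± 3.01 and 19.6 ± 1.67 (SD, n = 3 each). The difference did not pass the test (log2 fold change -0.09, standard error 0.13, limma adjusted p = 0.596), and its 95% interval ran from -0.38 to 0.20 on the log2 scale. A fall by more than 0.38 or a rise by more than 0.20 on the log2 scale thus lay outside the interval.

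*NRG4* (chr15:75935393-76060240), a second ligand of HER4, had 16 to 30 reads with scrambled siRNA and 17 to 26 with *DUSP6* siRNA. Its values of 0.307 to 0.446 and 0.318 to 0.344 overlapped (edgeR log2 fold change -0.17, adjusted p = 0.677). Exons of *FBXO22* on the opposite strand cover 38.2% of those of *NRG4*. Reads were counted with the default settings of Rsubread, which do not use strand, so reads of the 2 genes cannot be told apart there and the level of *NRG4* is uncertain.

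Of the ligands that bind EGFR alone, *EGF* fell, *TGFA* rose in the read-based test and *AREG* did not pass. *EGF* (chr4:109912883-110013766), the founding member of the family, was at 1.76, 1.80 and 1.60 with scrambled siRNA and at 1.23, 0.624 and 0.973 with *DUSP6* siRNA. The highest *DUSP6* siRNA library stayed below the lowest scrambled siRNA library, as in 31.1% of the genes limma tested, and *EGF* passed the filter through the scrambled siRNA group. The reads behind these values numbered 51 to 133 per library. The mean went from 1.72 ± 0.104 to 0.943 ± 0.306 (SD, n = 3 each), and limma put the log2 fold change at -0.50 (standard error 0.14, adjusted p = 0.016). On the recovered reads, where no 1 is added, the edgeR log2 fold change was -0.88 (adjusted p = 0.0213). Without *DUSP6* siRNA replicate 2, the lowest library, the limma log2 fold change was -0.37 and the adjusted p 0.0555.

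*TGFA* (chr2:70447284-70553826), a ligand that many epithelial tumours make for their own EGFR, was at 0.312, 0.843 and 0.362 with scrambled siRNA and at 0.971, 1.25 and 1.11 with *DUSP6* siRNA. Scrambled siRNA replicate 2 stood above its group, but no library overlapped with the other group. Such a separation in this direction held for 23.6% of the genes of mean value under 1 that edgeR tested. *TGFA* had 21, 44 and 30 reads with scrambled siRNA and 48, 102 and 72 with *DUSP6* siRNA (edgeR log2 fold change 1.19, adjusted p = 0.0227). Its mean over the 6 libraries was under 1, so limma did not test it with the filter on, and without the filter limma gave an adjusted p of 0.0304. The edgeR call was lost without scrambled siRNA replicate 1 (adjusted p = 0.0774) or 3 (0.0579), and without *DUSP6* siRNA replicate 2 (0.0906) or 3 (0.0608).

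*AREG* (chr4:74445136-74455005), amphiregulin, the EGFR ligand of normal mammary duct growth, was at 3.51, 3.14 and 2.04 with scrambled siRNA and at 2.47, 2.25 and 2.60 with *DUSP6* siRNA. Scrambled siRNA replicate 3 lay below all *DUSP6* siRNA libraries and the other 2 above them. The difference did not pass the test (log2 fold change -0.16, 95% interval -0.51 to 0.19, limma adjusted p = 0.418). Without scrambled siRNA replicate 3 the log2 fold change was -0.33 and the limma adjusted p 0.037.

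The ligands shared by EGFR and HER4 were all low. *HBEGF* (chr5:140332843-140346603), heparin-binding EGF, was at 1.03, 0.862 and 0.819 with scrambled siRNA and at 1.40, 1.11 and 1.71 with *DUSP6* siRNA. The groups did not overlap, which held in this direction for 26.7% of the genes limma tested, and *HBEGF* passed the filter only with the higher *DUSP6* siRNA values in its mean. Neither test passed at 0.05 (limma log2 fold change 0.33, standard error 0.13, adjusted p = 0.0561; edgeR log2 fold change 0.64, adjusted p = 0.0537). Without *DUSP6* siRNA replicate 2, the lowest of its group, the limma adjusted p was 0.0401.

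*BTC* (chr4:74744759-74794523), betacellulin, was at 0.491, 0.422 and 0.506 with scrambled siRNA and at 0.748, 0.673 and 0.881 with *DUSP6* siRNA, on 22 to 42 and 37 to 57 reads. The groups did not overlap, as in this direction for 23.6% of the genes of mean value under 1 that edgeR tested. The edgeR log2 fold change was 0.69 (adjusted p = 0.048). The edgeR call was lost when any 1 of the 6 libraries was left out, with adjusted p lowest at 0.0536 (scrambled siRNA replicate 3 left out) and highest at 0.188 (*DUSP6* siRNA replicate 3 left out). *EREG* (chr4:74365145-74388749), epiregulin, had 4, 2 and 1 reads with scrambled siRNA and 4, 2 and 3 with *DUSP6* siRNA, so no library held more than 4 reads. A difference in *EREG* was not detectable at this depth (edgeR log2 fold change 0.40, adjusted p = 0.716).

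**Figure D2:**
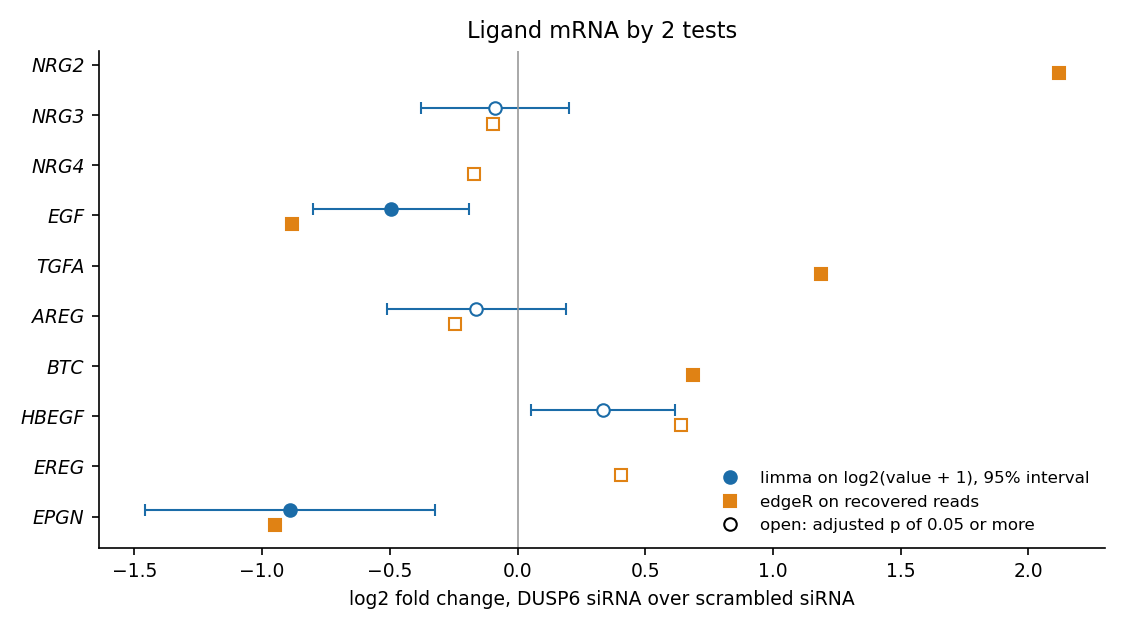
log2 fold change of each ligand, *DUSP6* siRNA over scrambled siRNA, by limma on log2(value + 1) (circles, with 95% intervals) and by edgeR on recovered reads (squares); filled symbols have an adjusted p under 0.05. *EGF* and *EPGN* are filled on the lower side by both tests, and *NRG2*, *TGFA* and *BTC* are filled on the higher side by edgeR, with no limma value because of their low means.

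*AREG*, *EREG* and *BTC* lie beside a further EGFR ligand, *EPGN* (epigen), at chr4:74308470-74794523. This stretch spans 486 kb and holds 4 genes of the table, which are these 4 ligands. *EPGN* was not among the 10 and is described as their neighbour. It was at 11.8, 8.64 and 11.0 with scrambled siRNA and at 6.19, 2.93 and 7.20 with *DUSP6* siRNA, on 240 to 915 reads per library. The groups did not overlap, which held in this direction for 31.1% of the genes limma tested. *EPGN* fell (log2 fold change -0.89, standard error 0.25, limma adjusted p = 0.0188; edgeR adjusted p = 0.0221), although the limma adjusted p was 0.0581 without the filter on low values and 0.0659 without scrambled siRNA replicate 1. Without *DUSP6* siRNA replicate 2, its lowest library, the log2 fold change was -0.57 (limma adjusted p = 0.0342). The 4 neighbours thus gave 1 gene that fell, 1 that rose on edgeR's reads and 2 whose groups overlapped.

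The sequence just before the start site of the 4 neighbours, of *EGF*, which fell, and of *NRG3*, the highest ligand, follows, to show which promoter motifs these ligands hold. The sequences are 250 bases long, from RefSeq on GRCh38.p14, 5′ to 3′ on the strand of the gene, and end at the base before the start site. Capitals mark matches to an AP-1 motif (TGANTCA), a CRE (TGACGTCA) or a TATA box (TATAAA), searched on both strands, and the ISRE (GAAANNGAAA) and the CArG box were searched in the same way. The AP-1 and CRE letters cannot match at the same place. *EPGN* lies at chr4:74308220-74308469, *EREG* at chr4:74364895-74365144, *AREG* at chr4:74444886-74445135 and *EGF* at chr4:109912633-109912882 on the plus strand, *NRG3* at chr10:81874944-81875193 on the plus strand and *BTC* at chr4:74794524-74794773 on the minus strand.
EPGN: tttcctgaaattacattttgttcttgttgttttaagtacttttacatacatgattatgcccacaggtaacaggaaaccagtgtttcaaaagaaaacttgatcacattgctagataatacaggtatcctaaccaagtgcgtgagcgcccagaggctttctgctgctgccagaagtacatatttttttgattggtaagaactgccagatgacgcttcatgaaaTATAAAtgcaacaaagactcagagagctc
EREG: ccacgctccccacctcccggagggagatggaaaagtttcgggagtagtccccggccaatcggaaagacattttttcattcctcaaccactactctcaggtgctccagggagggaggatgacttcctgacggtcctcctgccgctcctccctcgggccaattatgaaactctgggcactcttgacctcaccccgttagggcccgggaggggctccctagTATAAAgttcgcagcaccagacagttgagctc
AREG: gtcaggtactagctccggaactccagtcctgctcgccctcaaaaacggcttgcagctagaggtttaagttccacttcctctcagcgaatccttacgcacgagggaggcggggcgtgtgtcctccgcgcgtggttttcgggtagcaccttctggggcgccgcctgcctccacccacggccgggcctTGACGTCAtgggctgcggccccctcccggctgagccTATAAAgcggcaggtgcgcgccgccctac
BTC: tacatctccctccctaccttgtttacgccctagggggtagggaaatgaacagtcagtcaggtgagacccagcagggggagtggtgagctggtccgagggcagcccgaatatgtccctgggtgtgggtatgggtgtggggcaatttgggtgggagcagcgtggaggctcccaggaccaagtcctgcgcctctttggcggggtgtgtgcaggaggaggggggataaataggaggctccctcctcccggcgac
EGF: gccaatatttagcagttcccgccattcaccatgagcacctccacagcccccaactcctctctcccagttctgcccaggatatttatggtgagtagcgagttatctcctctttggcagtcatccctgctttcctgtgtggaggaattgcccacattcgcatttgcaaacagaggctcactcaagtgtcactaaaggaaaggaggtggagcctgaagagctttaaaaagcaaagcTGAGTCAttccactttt
NRG3: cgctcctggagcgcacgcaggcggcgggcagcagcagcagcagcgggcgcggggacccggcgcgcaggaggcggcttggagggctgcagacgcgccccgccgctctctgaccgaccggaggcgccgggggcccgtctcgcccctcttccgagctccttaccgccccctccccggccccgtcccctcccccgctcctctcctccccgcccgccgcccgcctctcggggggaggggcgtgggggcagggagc

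*EPGN*, *EREG* and *AREG* each hold a TATA box, whose first base is 29, 32 and 29 bases before the start. *AREG* also holds a CRE, 65 bases before its start, and *EGF* an AP-1 motif, 17 bases before it. *BTC* and *NRG3* held none of the 5 motifs in the 300 bases searched, which run from 250 bases before to 50 after the start. Of 35116 promoters of that length, 11.5% held the TATA letters, 7.71% AP-1, 3.57% the ISRE, 1.85% the CRE and 1.29% the CArG box. The window was 81.0% G and C in *NRG3* and 37.7% in *EPGN*, against a median of 58.7% over all promoters. *EGF* and *EPGN*, which fell, shared none of these motifs, and a match of letters does not show that a factor binds there.

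Levels of different genes were compared per kb of exon, since longer mRNAs yield more reads. With scrambled siRNA, *NRG3* was at 4.04 ± 0.58, *AREG* at 1.76 ± 0.467, *HBEGF* at 0.302 ± 0.0365, *EGF* at 0.225 ± 0.0136 and *BTC* at 0.178 ± 0.017 normalized value per kb (SD, n = 3 each). Below them came *TGFA* at 0.103 ± 0.0596, *NRG4* at 0.0732 ± 0.0143, *NRG2* at 0.00873 ± 0.00487 and *EREG* at 0.00641 ± 0.00416, with *NRG1* last at 0.000299 ± 0.000518. Among neighbours in this order, the scrambled siRNA libraries of *BTC* and *TGFA*, of *TGFA* and *NRG4* and of *NRG2* and *EREG* overlapped, and the other 6 neighbouring pairs did not. *EPGN*, at 3.17 ± 0.493, would stand second. Per kb of coding sequence *NRG3* still led the 10, at 8.14, but *EPGN* stood above it at 21.7, and *EGF* came below *NRG4* at 0.475 against 0.996.

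*NRG3* made up 60.3% ± 7.78 (SD, n = 3) of the summed level of the 10 ligands per kb with scrambled siRNA and 58.2% ± 4.12 with *DUSP6* siRNA, with overlapping libraries. *AREG* came second with 26.3% ± 7.02 and 22.9% ± 1.84. The HER3 ligands *NRG1* and *NRG2* together made up 0.133% ± 0.0724 and 0.603% ± 0.168. The sum itself was 6.70 ± 0.44 and 6.48 ± 0.165 per kb, and its libraries overlapped between the groups. *EPGN* is left out of this sum and of these shares. It was at 3.17 ± 0.493 per kb with scrambled siRNA and 1.65 ± 0.675 with *DUSP6* siRNA (SD, n = 3 each).

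**Figure D3:**
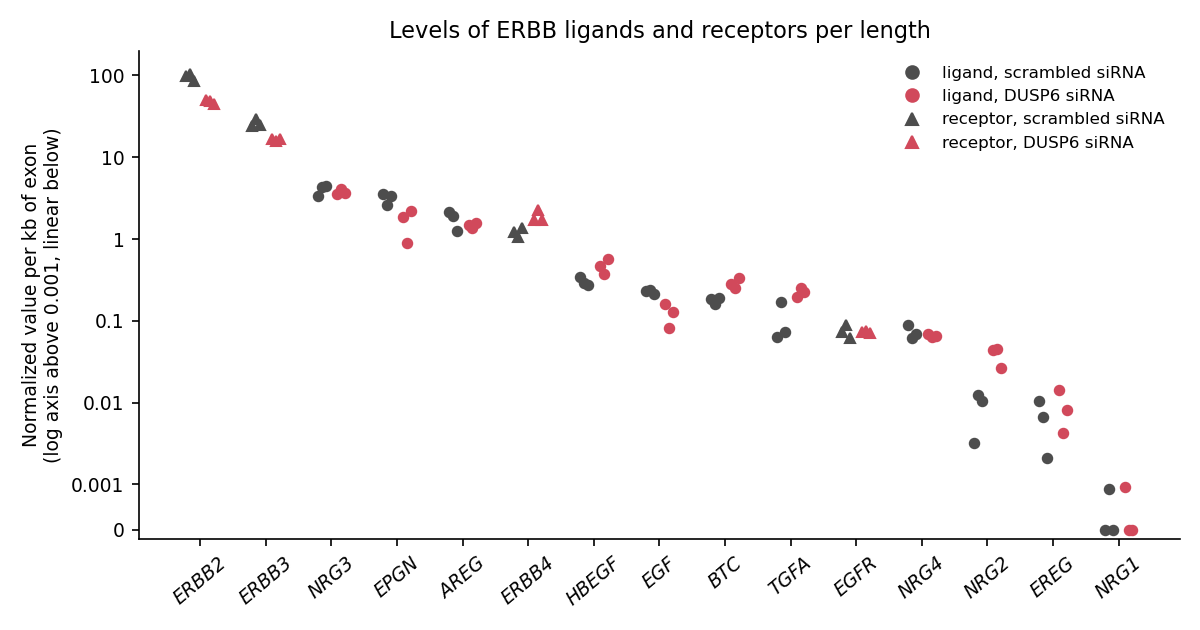
Normalized value per kb of exon for the 10 ligands, *EPGN* (all circles) and the 4 receptors (triangles) in each library, ordered by the scrambled siRNA mean; the axis is logarithmic above 0.001 and linear below it. *ERBB2* and *ERBB3* stand above every ligand, and *EGFR* lies at 0.0746 with scrambled siRNA, between *TGFA* and *NRG4*.

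The receptors of these ligands moved in different directions. *ERBB2* fell from 984 ± 94.3 to 495 ± 33.6 (log2 fold change -0.99, standard error 0.11, limma adjusted p = 1.59e-04) and *ERBB3* from 307 ± 34.1 to 192 ± 5.99 (log2 fold change -0.66, standard error 0.10, limma adjusted p = 8.77e-04; SD, n = 3 each). *ERBB4*, the receptor of *NRG3*, rose from 15.6 ± 1.96 to 24.6 ± 4.03 (SD, n = 3 each; log2 fold change 0.62, standard error 0.14, limma adjusted p = 0.00724). *EGFR* was at 1.19 ± 0.221 with scrambled siRNA and at 1.17 ± 0.0219 with *DUSP6* siRNA (SD, n = 3 each), on 58 to 97 reads per library. Its difference did not pass the test (log2 fold change -0.01, 95% interval -0.27 to 0.25, limma adjusted p = 0.951). Per kb of exon, *ERBB3* stood at 26.2 ± 2.91 with scrambled siRNA while its ligands *NRG1* and *NRG2* summed to 0.00903 ± 0.00523 (SD, n = 3 each). *ERBB4* stood at 1.20 ± 0.151, below *NRG3*, and *EGFR* at 0.0746 ± 0.0139, below the means of *EGF*, *TGFA* and *AREG*. Exons of *MIEN1* on the opposite strand cover 5.53% of those of *ERBB2*, so its value is uncertain, by an amount that was not measured.

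Of 19 genes for the cutting and maturation of ligands, limma tested 16, of which 4 rose, 1 fell and 11 did not pass, with a median log2 fold change of 0.14. Over all genes tested, 19.7% rose and 24.7% fell, so the share of these genes that rose lay near that of all genes. *BACE2*, a relative of the neuregulin-cutting protease BACE1, went from 0.801 ± 0.295 to 3.11 ± 0.205 (SD, n = 3 each; limma log2 fold change 1.20, adjusted p = 2.45e-04; edgeR log2 fold change 1.93), and it passed the filter only through the *DUSP6* siRNA group. *ADAM8*, a metalloprotease, rose by 0.58 on the log2 scale (limma adjusted p = 0.0281) and *PCSK5*, a proprotein convertase, by 0.51 (limma adjusted p = 0.00417). *FURIN*, the convertase that activates ADAM proteases, was the fourth that rose (log2 fold change 0.36, limma adjusted p = 0.035). *ADAM15* was the 1 gene that fell (log2 fold change -0.91, limma adjusted p = 0.00608), and its scrambled siRNA values ranged from 228 to 409. *FURIN* and the next 2 genes were chosen after their values were seen. The main sheddases did not pass the test, with log2 fold changes of 0.11 for *ADAM17* (95% interval -0.12 to 0.35), which frees TGFA, AREG and HBEGF, and of -0.07 for *ADAM10* (95% interval -0.33 to 0.19), which frees EGF and BTC. *IAH1* exons cover 10.3% of those of *ADAM17*, so its value is uncertain.

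Of 7 genes for the transport of ligands and for surface proteins that hold them, limma tested 6, of which 2 fell and 4 did not pass, against 24.7% of all genes tested that fell. *CD9*, a surface protein that associates with membrane-bound HBEGF, fell from 241 ± 7.96 to 156 ± 8.05 (SD, n = 3 each; log2 fold change -0.62, limma adjusted p = 5e-04). *GORASP2*, a Golgi protein that binds the tail of TGFA, fell by 0.43 on the log2 scale (limma adjusted p = 0.0212). *CD44*, which can present HBEGF, had at most 1 read in every library and was chosen after its values were seen.

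Of 17 genes that ERK signalling commonly induces downstream of these receptors, limma tested 16, of which 9 fell, 2 rose and 5 did not pass, with a median log2 fold change of -0.51, against 19.7% of all genes tested that rose, 24.7% that fell and a median of -0.01. *EGR1*, an early transcription factor, fell by 1.90 on the log2 scale (limma adjusted p = 0.0104) and *DUSP5*, a nuclear ERK phosphatase, by 1.45 (limma adjusted p = 1.03e-04). *SPRY4*, a feedback inhibitor of the pathway, fell by 1.25 on the log2 scale (limma adjusted p = 4.68e-05). *ETV4*, an ETS factor, fell as well (log2 fold change -1.18, limma adjusted p = 0.0368), with scrambled siRNA replicate 1 at 11.6 and the other 2 at 2.45 and 3.64. *SPRY2*, a relative of *SPRY4*, rose from 2.73 ± 0.25 to 6.38 ± 0.627 (SD, n = 3 each; log2 fold change 0.98, limma adjusted p = 2.52e-04). *PHLDA1*, a regulator of cell survival, was the other gene that rose (log2 fold change 0.48, limma adjusted p = 0.0262), although exons of *PHLDA1-AS1* cover 9.35% of its own. It and *SPRY2* were chosen after their values were seen. *DUSP6* is itself such a target and was kept out of the list.

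**Figure D4:**
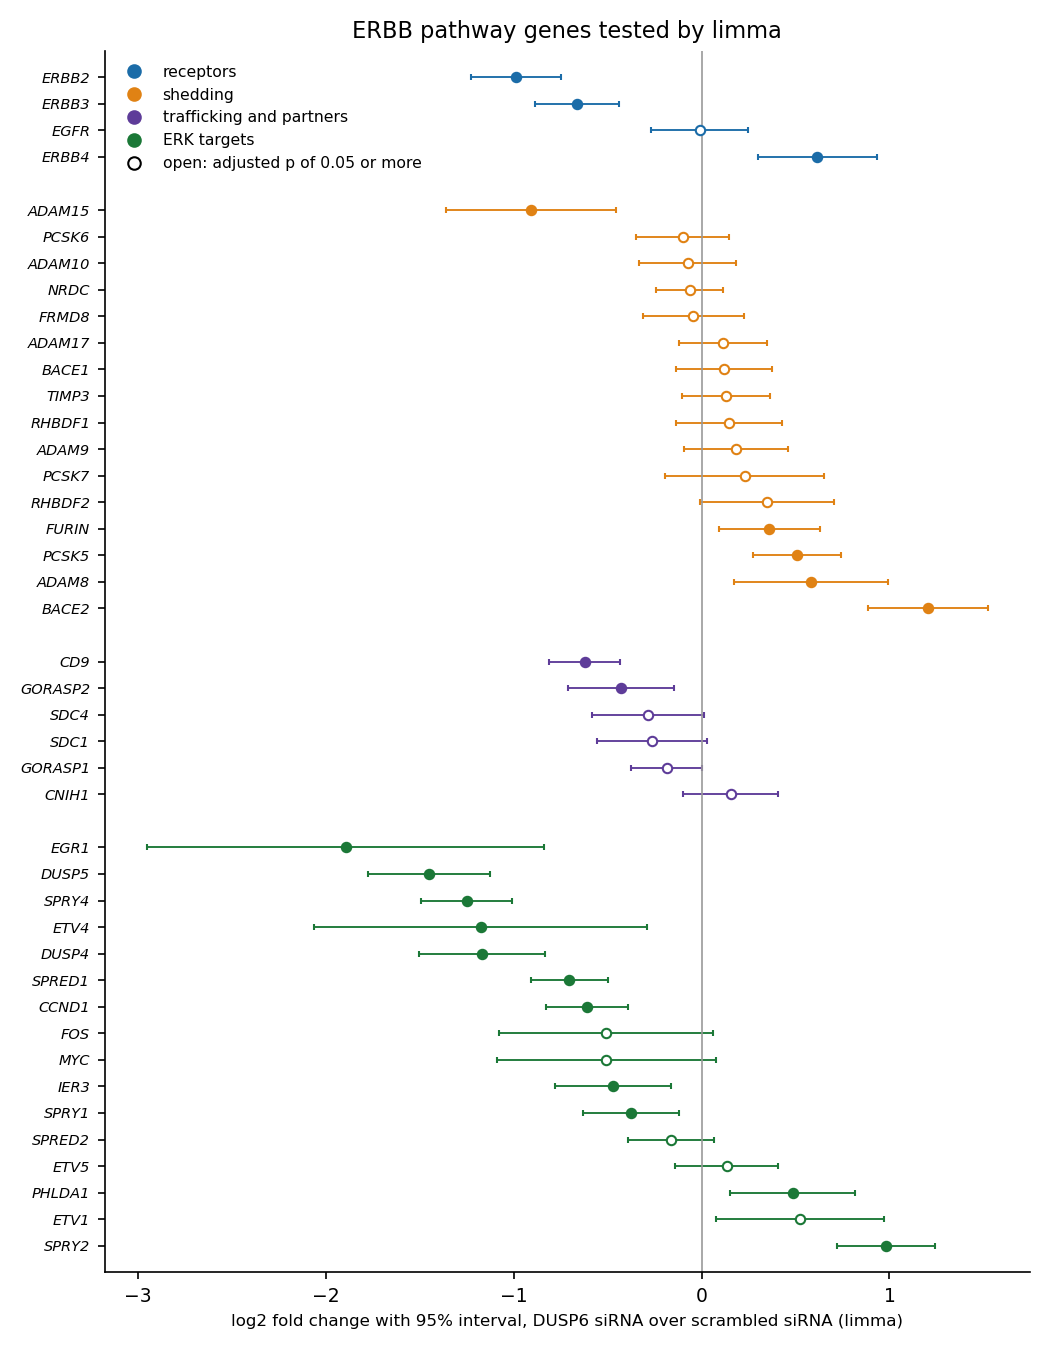
log2 fold change, *DUSP6* siRNA over scrambled siRNA, with 95% intervals from limma, for the tested receptors, genes of ligand cutting and maturation (shedding), genes of ligand transport and surface partners, and ERK-induced genes; filled circles have an adjusted p under 0.05. *ERBB2* and *ERBB3* lie to the left of 0 and *ERBB4* to the right, and 9 of the 16 ERK-induced genes are filled on the left.

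*EGF* was the 1 called by limma among the 10 ligands, and the 3 tested genes whose log2 values followed it most closely over the 6 libraries were *JMJD6* (Pearson's r = 0.997), *TIMP1* (r = 0.995) and *ICAM3* (r = 0.992). All 3 were lowest in *DUSP6* siRNA replicate 2, as *EGF* was. These correlations describe 6 libraries that fall into 2 groups and carry no test.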

How the data were processed

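RNA of 6 libraries was read with a stranded mRNA kit. Per the study, the authors aligned reads to hg38 with Rsubread 2.0.0, and the labels name edgeR. The authors deposited a normalized signal, 1 value per gene and library. Dividing each column by its smallest positive value gave whole reads (100% whole, tolerance 1e-06), and the steps equalled those of edgeR's TMM method. Reads were assigned to RefSeq genes with the default settings of Rsubread, which do not use strand.

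limma 3.58.1 in R 4.3.3 (lmFit, eBayes with a trend) was run on log2(value + 1) for genes whose mean value reached 1, and p-values were adjusted by Benjamini-Hochberg, with a threshold of 0.05. Adding 1 makes the fold changes of low genes smaller. edgeR 4.0.16's quasi-likelihood test used recovered reads of the 18500 genes with at least 10 reads. Both were tested on simulated data in which only genes of a mean value of at least 1 were changed. That check does not cover *NRG2*, *TGFA* and *BTC*, whose means were lower. Exon and coding lengths and exon overlaps came from GENCODE release 44, merged over transcripts, and positions and promoters from RefSeq. The 10 ligands and the gene lists were chosen with earlier results of these data known. Besides the ligands, *EPGN*, *DUSP6* and the receptors, up to 4 called members of each list with the largest fold change were named. Alternatives were another pseudocount, filter, scaling, variance model, a replicate block, edgeR and leaving out each library. Leaving out libraries in edgeR was added after seeing the data.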

Additional observations from a re-analysis of the deposited data

How the results depend on the processing

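*DUSP6*, *ERBB2*, *ERBB3*, *ERBB4* and *NRG3* kept their direction and their side of the threshold under all 14 alternatives, and *EGF* under 12 of 13. The number of ligands called higher was 0 of 4 by limma, 1 with eBayes without a trend (*HBEGF*), 3 of 10 without a filter on low values and 3 of 9 by edgeR (*NRG2*, *TGFA* and *BTC* in both), and 0 to 1 when 1 library was left out. The number called lower was 1, 0 with a mean value of at least 10, where *NRG3* is the 1 ligand left to test, and 0 to 2 when 1 library was left out. Shedding genes called higher were 4, 2 without a filter, 1 with a mean value of at least 10 and 2 to 5 when 1 library was left out. Genes of transport and surface partners called lower were 2, 1 under quantile normalization and 1 to 2 when 1 library was left out. ERK-induced genes called higher were 2, 0 with a mean value of at least 10 and 1 under quantile normalization. They were 3 with a replicate block and 1 to 2 when 1 library was left out. Those called lower were 9, and 8 without a filter, with a mean value of at least 10 or under quantile normalization. With a replicate block 11 were called lower, and 6 to 10 when 1 library was left out. Over all genes, 2540 were called higher, 1639 with a mean value of at least 10 and 1535 to 3213 when 1 library was left out, the fewest without *DUSP6* siRNA replicate 2, and 1686 without replicate 3. The lowest shedding count came without *DUSP6* siRNA replicate 1 or 2 or scrambled siRNA replicate 2, that of transport genes without any 1 *DUSP6* siRNA library, and that of ERK-induced genes called higher without *DUSP6* siRNA replicate 1 or 3 or scrambled siRNA replicate 2. The higher mean needed leaves 9562 genes to test. For the other changes the cause was not tested.

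The log2 fold change of *EGFR*, which did not pass the test, turned from -0.01 to 0.064 without scrambled siRNA replicate 2 and ranged down to -0.082 with another library left out. That of *EREG* turned from 0.40 to -0.023 without *DUSP6* siRNA replicate 1 and to -0.11 without scrambled siRNA replicate 3 in edgeR. With a replicate block, 2495 genes were called higher and 3096 lower, against 2540 and 3179 without it, and 0 and 1 of the ligands. Libraries of the same number did not deviate together, with correlations of 0.005, 0.0868 and -0.0764, and 2 of 6 libraries correlated best with their own number. Depth limits *NRG1*, *NRG2* and *EREG*, with at most 17 reads in a library, and the calls of *TGFA* and *BTC* rest on few reads. Intervals are those of the fits and do not cover errors in assigning reads to overlapping genes.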
